A study of Arabidopsis thaliana with 18 samples.

Results

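Gibberellin metabolism and perception were followed through 10 Arabidopsis genes, picked by gene identifier and not by their values, among the 32833 genes listed for every library. They comprise the gibberellin 20-oxidases GA20ox1 (AT4G25420) and GA20ox2 (AT5G51810), the gibberellin 3-oxidase GA3ox1 (AT1G15550), the gibberellin 2-oxidases GA2ox1 (AT1G78440), GA2ox2 (AT1G30040), GA2ox6 (AT1G02400) and GA2ox8 (AT4G21200), and the gibberellin receptors GID1A (AT3G05120), GID1B (AT3G63010) and GID1C (AT5G27320). RNA-seq libraries came from 2-week-old seedlings of the Columbia ecotype (Col-0), either wild type (WT) or the bro1-1 mutant, grown on half-strength Murashige and Skoog medium with sucrose. Seedlings of each genotype were mock-treated (0 µM ABA) or received 100 µM ABA for 2 h or 4 h, which gives 6 groups of 3 independent biological replicates. The bro1-1 mutant is a single T-DNA insertion line, with the insertion in an intron of AtBro1 (AT1G73390), a gene for a Bro1-like domain-containing protein.

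Gibberellins are growth-promoting hormones that act against ABA in germination and seedling growth. GA 20-oxidases and GA 3-oxidases carry out the last steps toward the bioactive hormones, whereas GA 2-oxidases inactivate them or their precursors. The GID1 receptors bind the hormone and then the DELLA repressors (GAI, RGA and the RGL proteins), which are handed to the SLY1 F-box protein for degradation. In Arabidopsis a low gibberellin signal is known to raise GA20ox, GA3ox1 and GID1 transcripts and to lower several GA2ox transcripts, a feedback that keeps the pathway in balance.

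After ABA, transcripts of GA2ox6 were 6.79- to 10.7-fold higher and those of GID1B 2.74- to 3.32-fold higher in both genotypes at both times. GA20ox1 was downregulated in WT at 4 h, and GA20ox2 in bro1-1 at 2 h and 4 h. With all libraries kept, GA20ox1 did not pass the filter on low counts in bro1-1 and so was not tested there. GA20ox2 at 4 h had a log2 fold change of -1.44 in WT, without a call, and of -1.40 in bro1-1. In WT, GA20ox1 passed the filter on low counts only through its mock libraries, so its call is no separate support. GA3ox1, GA2ox2, GA2ox8, GID1A and GID1C did not pass both thresholds in any comparison with mock. GA2ox1 passed the filter against mock only in WT at 2 h, and did not pass both thresholds there. No member differed between bro1-1 and WT at the threshold used.

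The upstream sequences of 4 members are printed because these genes include members called after ABA (GA2ox6, GID1B and GA20ox1) and a receptor that was not called (GID1A). Each is the 250 bases just before the annotated start of the gene on its own strand, 5′ to 3′, read from the RefSeq TAIR10.1 genome, and 9 members were searched for motifs. Capitals mark the ABA-responsive element core ACGTG and the gibberellin-responsive element TAACAAA, each searched on both strands.
GA2ox6: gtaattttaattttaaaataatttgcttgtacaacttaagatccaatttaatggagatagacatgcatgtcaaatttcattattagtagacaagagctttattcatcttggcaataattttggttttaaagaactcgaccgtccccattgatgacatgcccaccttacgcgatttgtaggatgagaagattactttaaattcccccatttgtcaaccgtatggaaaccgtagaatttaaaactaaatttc
GID1B: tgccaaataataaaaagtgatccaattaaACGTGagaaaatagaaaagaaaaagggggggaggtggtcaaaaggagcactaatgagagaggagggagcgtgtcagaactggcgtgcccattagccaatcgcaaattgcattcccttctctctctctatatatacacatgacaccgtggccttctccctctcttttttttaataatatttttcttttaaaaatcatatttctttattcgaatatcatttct
GID1A: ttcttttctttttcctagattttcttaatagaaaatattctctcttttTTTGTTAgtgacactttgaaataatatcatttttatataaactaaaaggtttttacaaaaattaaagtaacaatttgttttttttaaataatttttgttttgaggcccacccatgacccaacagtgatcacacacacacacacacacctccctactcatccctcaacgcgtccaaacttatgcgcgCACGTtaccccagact
GA20ox1: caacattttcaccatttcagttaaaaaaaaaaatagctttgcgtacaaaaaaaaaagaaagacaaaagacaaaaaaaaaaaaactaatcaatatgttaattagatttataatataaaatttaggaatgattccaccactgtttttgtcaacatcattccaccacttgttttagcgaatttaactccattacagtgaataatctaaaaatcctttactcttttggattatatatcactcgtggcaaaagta

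GA2ox6 lies on the plus strand of chromosome 1 (486800 to 489651, upstream window from 486550 to 486799), GID1B on the plus strand of chromosome 3 (23289243 to 23291486, window from 23288993 to 23289242) and GID1A on the same strand of chromosome 3 (1430363 to 1432844, window from 1430113 to 1430362). GA20ox1 lies on the minus strand of chromosome 4 (12990851 to 12992585, window from 12992586 to 12992835). None of these 4 genes overlaps another annotated gene, and no other gene lies inside these windows. The element core was found in 4 of 9 members searched, namely GA2ox2, GA2ox8 with 2 matches, GID1A and GID1B, against 22.9% of 27443 promoters of protein-coding genes. TAACAAA was found in GA2ox8 and GID1A, that is 2 of 9, against 16.1% of promoters. The G-box CACGTG, which contains the element core and is present in 6.49% of promoters, and the evening element AAAATATCT, present in 2.36%, had no match in any of the 9 members. GA2ox6 and GA20ox1 had no match to any of these motifs in the window. A match is a run of letters and not a shown binding site.

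Library totals ranged from 15568032 to 17853167 expected counts, so that 1 count corresponded to 0.0560 to 0.0642 CPM (counts scaled to library size). AtBro1 was counted in every library as a check of the labels, and the counts after ABA are not given here. At mock it had 410, 237 and 236 counts in WT and 220, 178 and 197 in bro1-1. Transcripts of the locus were thus still counted in the mutant. These counts are not scaled to library size, and with 236 in WT against 220 in bro1-1 they do not separate the genotypes clearly. The paper reports, from RT-PCR, that transcripts of this gene were absent in the homozygous mutant. The reason for this difference was not tested. Shoot markers were abundant in all libraries, with the 4-gene sum from 17596 to 43670 CPM, and root markers were present at 972 to 3165 CPM over 6 genes, whereas flower markers stayed at or below 2.0 CPM over 3 genes. WT mock 2 and bro1-1 mock 3 stood apart from the other 4 mock libraries in genes outside the lists of gibberellin genes. RCA, the activase of Rubisco, had 20649 and 26713 counts in them and 87014 to 114888 in the others, and the morning clock gene CCA1 had 137 and 25 against 186 to 592. The evening clock gene TOC1 went the other way, with 4346 and 4321 counts against 1506 to 2977. Seed storage transcripts (CRA1, CRC and SESA3) summed to 744 CPM in bro1-1 mock 3, to 27.3 CPM or less in each other library, and to at most 0.859 CPM in WT. Shoot meristem markers (STM, KNAT1 and WUS) summed to 7.02 to 14.4 CPM in WT mock, 3.81 to 5.42 at 2 h and 4.99 to 10.5 at 4 h, and to 6.13 to 11.2, 3.75 to 4.69 and 3.09 to 13.6 CPM in bro1-1. WUS was at 0 in every group but WT mock, and KNAT1 fell at 2 h in WT (-1.40, adjusted p = 0.00603 by edgeR) and in bro1-1 (-1.16, adjusted p = 0.0171 by edgeR) but was not called at 4 h; their part in the member results was not tested. Calls of members, of other pathway genes and of clock genes that are lost or gained without the mock library that stands apart are named beside the results. The RNA is from whole seedlings, in which fewer cells of a type and less RNA per cell cannot be told apart.

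Levels of different genes were compared in TPM, a unit that accounts for transcript length. At mock, GID1A had the highest level of the members in both genotypes, at 30.8 ± 2.33 TPM in WT and 28.8 ± 2.00 in bro1-1 (SD, n = 3), above every library of GID1C, the next in order, at 17.6 ± 8.76 and 18.6 ± 5.20. GID1B followed at 9.83 ± 2.55 and 8.36 ± 2.41 TPM, then GA2ox6 at 7.05 ± 3.24 and 7.93 ± 3.58 and GA3ox1 at 6.56 ± 5.34 and 5.45 ± 4.08. GID1C and GID1B overlapped in WT but not in bro1-1. From GID1B down to GA2ox8 the libraries of each gene overlapped those of its neighbour in the order, and GA2ox1 came last, at 0.33 ± 0.36 TPM in WT and 0.32 ± 0.17 in bro1-1. After ABA the order was different: GA2ox6 came first in all 4 ABA groups, from 51.5 ± 20.8 TPM in bro1-1 at 4 h to 69.5 ± 16.9 in bro1-1 at 2 h, with every library above every library of the next gene. GID1B came next in each ABA group, and in WT its libraries overlapped those of the gene after it in the order. GA20ox1 was last in each ABA group, from 0.10 ± 0.07 TPM in WT at 4 h to 0.39 ± 0.35 in WT at 2 h.

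**Figure D1:**
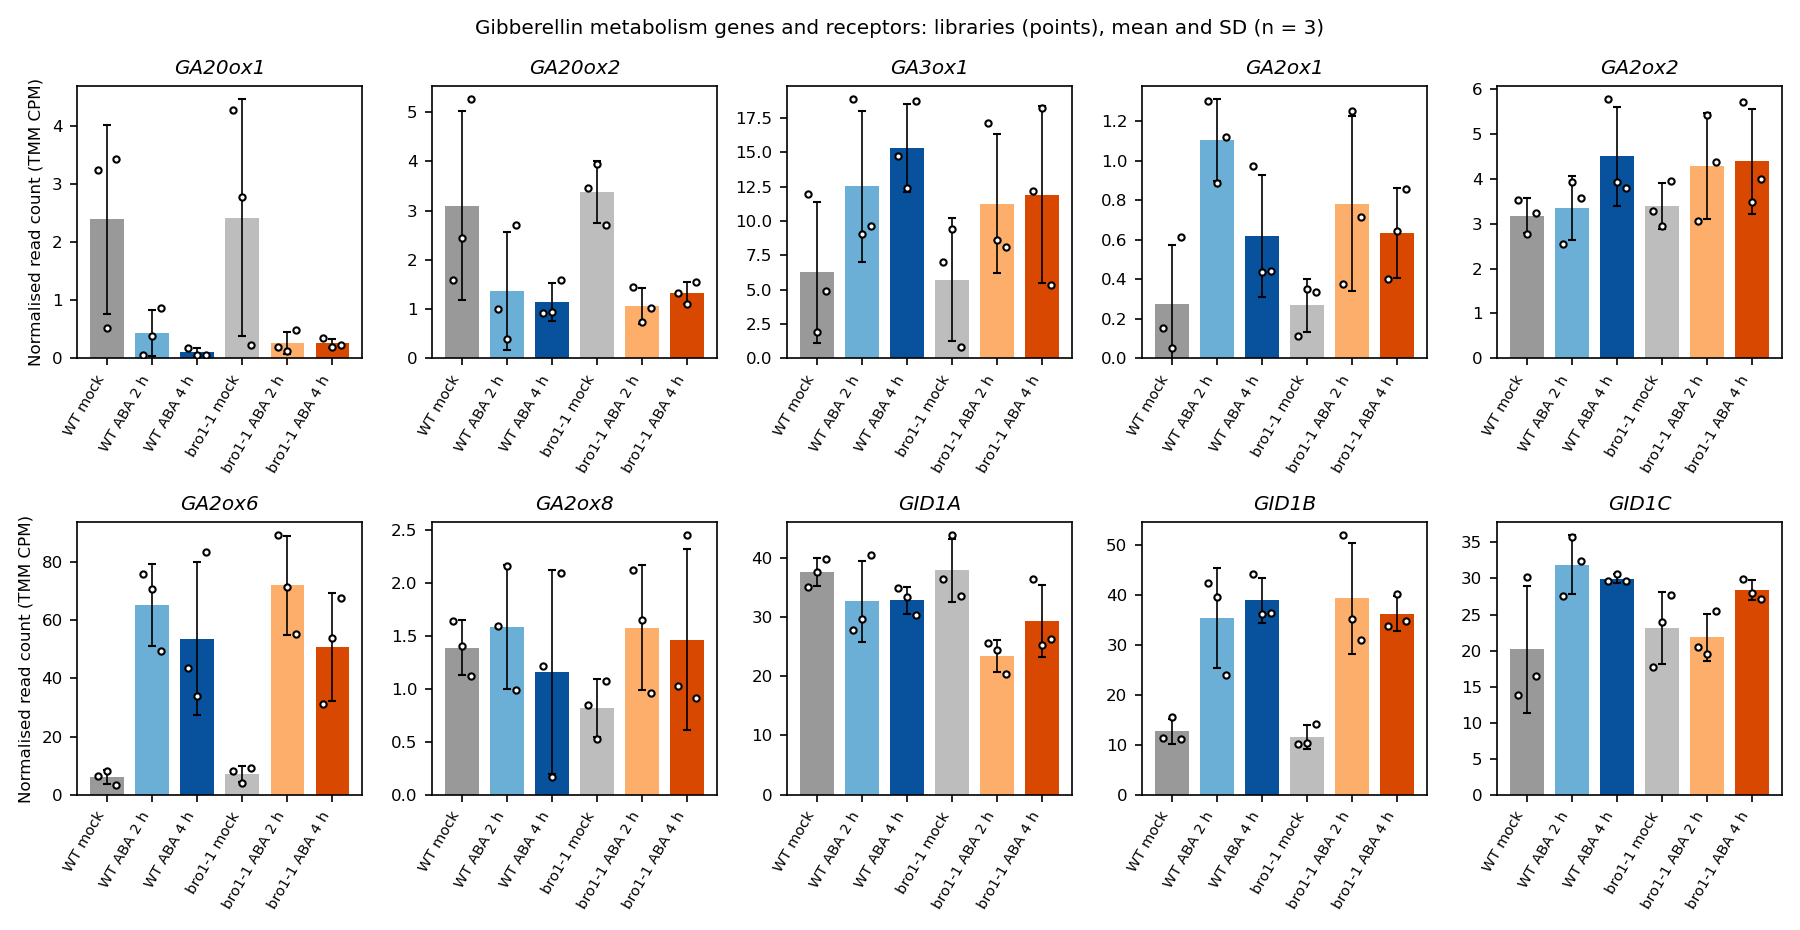
Normalised read counts (TMM CPM, vertical axis from 0) of the 10 genes in the 6 groups; bars are means, error bars the SD of 3 libraries (cut off at 0) and circles single libraries. GA2ox6 and GID1B show ABA libraries that all lie above all mock libraries of the same genotype, whereas GA20ox1 and GA3ox1 show 1 low library in each mock group.

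Changes were tested in edgeR (quasi-likelihood F-test) over all genes that passed a filter on low counts, and p-values were adjusted by the Benjamini-Hochberg method. A gene counted as called where the adjusted p was below 0.05 and the log2 fold change was above 1 or below -1. In WT at 2 h, 2 of 10 members tested were called, both higher, while 17.7% of the 19725 genes tested were called in either direction. In WT at 4 h, 3 of 9 members tested were called, 2 higher and 1 lower, against 20.9% of 19880 genes. The lower 1, GA20ox1, passed the filter only through its mock libraries. In bro1-1, 3 of 8 members tested were called at each time, 2 higher and 1 lower, against 21.9% of 19756 genes at 2 h and 23.8% of 19958 genes at 4 h. The members tested had median log2 fold changes of 0.41 and 0.50 in WT and 0.60 and 0.55 in bro1-1 at 2 h and 4 h, beside medians over all genes tested of -0.04, -0.02, -0.04 and -0.01. Without WT mock 2, 4 members were called in WT at 2 h and 3 at 4 h, and without bro1-1 mock 3, 4 in bro1-1 at 2 h and 4 at 4 h. Over all genes, leaving out 1 library gave 2424 to 4216 calls in WT at 2 h and 3105 to 4626 at 4 h. In bro1-1 the corresponding ranges were 3728 to 4373 and 4263 to 4932. Shares over so few genes are a description, and nothing particular to the list was read from them. The 2 h and 4 h comparisons of a genotype share its mock libraries, so their values stand side by side and are not independent.

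**Figure D2:**
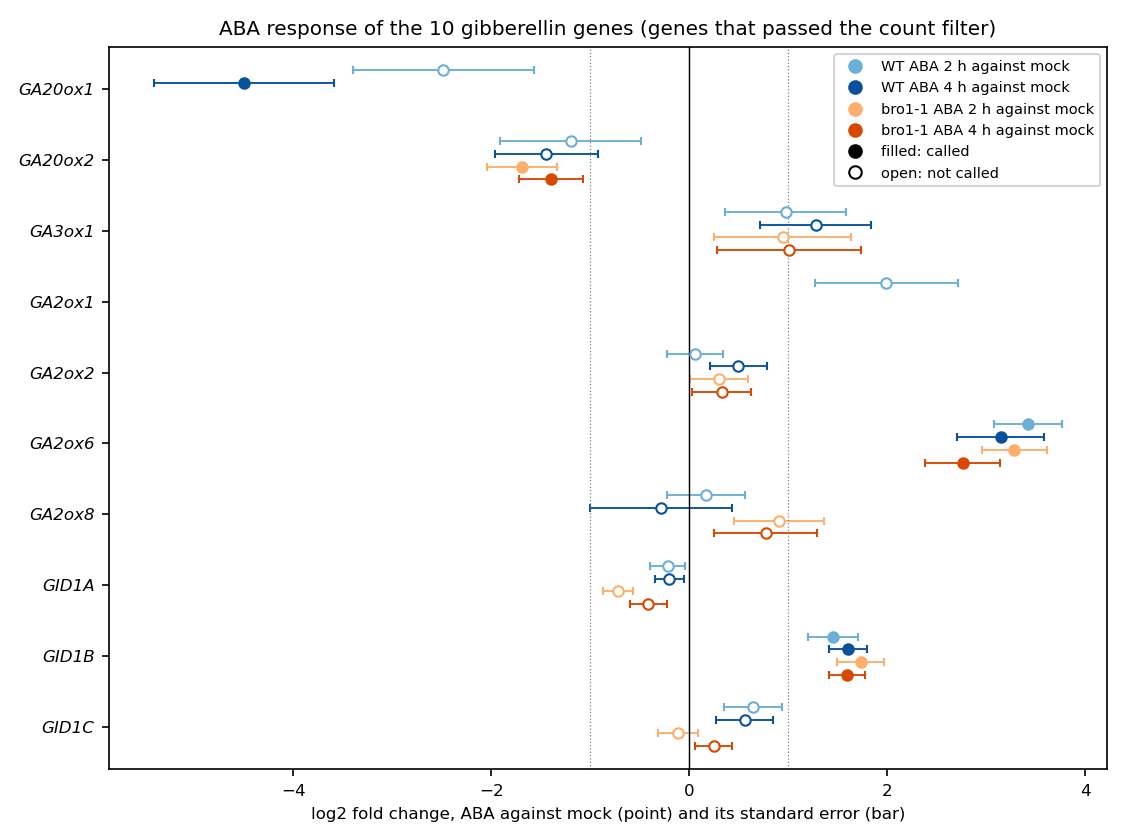
Log2 fold change of ABA against mock (horizontal axis) with its standard error (bars) for each member that passed the count filter, in 4 comparisons; filled points were called, open points were not, and dotted lines mark -1 and 1. GA2ox6 and GID1B are filled and to the right in all 4 comparisons, and GA20ox1 in WT lies farthest to the left, at -4.50 for 4 h.

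Among the biosynthetic genes, GA20ox1 encodes the 20-oxidase known for its part in stem elongation. In WT, its counts were 63, 10 and 61 at mock, 1, 6 and 13 at 2 h, and 3, 1 and 1 at 4 h. In WT mock 2 it was as low as in the 2 h group, whereas all 3 libraries at 4 h lay below all mock libraries. The normalised read count was 2.39 ± 1.62 CPM at mock, 0.433 ± 0.402 at 2 h and 0.1002 ± 0.0715 at 4 h (SD, n = 3). At 4 h, GA20ox1 was downregulated by a log2 fold change of -4.50 (with 0.91 as its standard error, SE, and an adjusted p of 0.00898 in edgeR). Since each library at 4 h held at most 3 counts, the summed counts are also given: 134 at mock against 5 at 4 h, a ratio of 23.9 with a 95% interval (exact Clopper-Pearson) from 9.998 to 74.9 that covers counting error only. At 2 h the log2 fold change was -2.49 (SE 0.91), and with an adjusted p of 0.0844 (edgeR) the gene was not called. Without WT mock 2, GA20ox1 was called at both times, with -2.96 (adjusted p = 0.0255 by edgeR) at 2 h and -4.97 (adjusted p = 0.00138 by edgeR) at 4 h. GA20ox1 passed the filter in WT only through its mock libraries, where it is high, so its calls there are no separate support.

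In bro1-1, GA20ox1 had 75, 47 and 4 counts at mock, 3, 2 and 8 at 2 h, and 6, 3 and 4 at 4 h. The mock library with 4 counts is bro1-1 mock 3, and because of it the gene did not pass the filter in these comparisons. With no filter, the log2 fold change was -3.14 (SE 0.97, adjusted p = 0.0380 by edgeR) at 2 h and -3.26 (SE 0.91, adjusted p = 0.0221 by edgeR) at 4 h. Without bro1-1 mock 3 the gene passed the filter through its other mock libraries alone, and was called at -3.68 (adjusted p = 0.00250 by edgeR) and -3.78 (adjusted p = 0.000710 by edgeR). These calls are no separate support, because the gene passed only through the group where it is high. Leaving out any 1 of the ABA libraries instead gave no call, with adjusted p from 0.0630 to 0.114 at 2 h and from 0.0608 to 0.0867 at 4 h by edgeR. The libraries with low GA20ox1 at mock are the same in which RCA and CCA1 were low; the part of this difference in the result was not tested.

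GA20ox2, the 20-oxidase that acts together with GA20ox1 in elongation and floral transition, had 31, 47 and 94 counts in WT mock, 17, 6 and 41 at 2 h, and 15, 17 and 25 at 4 h. The bro1-1 libraries had 61, 67 and 48 counts at mock, 23, 11 and 17 at 2 h, and 23, 17 and 27 at 4 h. The bro1-1 mock libraries all lay above the ABA libraries, while in WT the 2 h group overlapped mock and the 4 h group lay below it. In bro1-1, GA20ox2 was downregulated at 2 h with a log2 fold change of -1.69 (SE 0.36, adjusted p = 0.00792 by edgeR) and at 4 h with -1.40 (SE 0.32, adjusted p = 0.0101 by edgeR). In WT the values were -1.20 (SE 0.72, adjusted p = 0.252 by edgeR) and -1.44 (SE 0.52, adjusted p = 0.0704 by edgeR), neither of which passed. The WT value at 4 h was called by DESeq2 at -1.45 (adjusted p = 0.0352) and in 1 edgeR fit of all 18 libraries at -1.48 (adjusted p = 0.0397). The difference between the genotypes in this response was itself tested, and the interaction was -0.47 (SE 0.86) at 2 h and 0.09 (SE 0.61) at 4 h. GA20ox1 and GA20ox2 share an identical stretch of at most 29 bases in their annotated transcripts. The summed level of both 20-oxidases ranged over 3.46 to 9.13 TPM at mock and 0.69 to 3.08 TPM after ABA in WT, and over 3.29 to 7.90 TPM and 0.71 to 1.82 TPM in bro1-1. In TPM, which is scaled within each library only, no ABA library reached the lowest mock library of its genotype. In CPM, each of these genes overlapped mock in WT at 2 h, and GA20ox1 also overlapped mock in bro1-1 at 2 h and 4 h. The sum of both genes was not compared in CPM.

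GA3ox1, the 3-oxidase that makes bioactive gibberellin in vegetative tissue, had fold changes of the opposite sign to the 20-oxidases, without a call. Its counts were 233, 37 and 88 in WT mock, 319, 142 and 146 at 2 h, and 242, 227 and 296 at 4 h. In bro1-1 they were 123, 160 and 14 at mock, 274, 130 and 135 at 2 h, and 213, 283 and 94 at 4 h. The lowest libraries were again WT mock 2 and bro1-1 mock 3. The log2 fold changes were all above 0, at 0.98 (SE 0.61) and 1.28 (0.56) in WT and 0.94 (0.70) and 1.01 (0.73) in bro1-1 at 2 h and 4 h, with adjusted p from 0.121 to 0.314 by edgeR. Without the low mock library the values were closer to 0, at 0.55 and 0.85 in WT and 0.44 and 0.49 in bro1-1. Without WT mock 1, the highest mock library, GA3ox1 was called in WT at 1.86 (adjusted p = 0.0327 by edgeR) and 2.14 (adjusted p = 0.00942 by edgeR).

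**Figure D3:**
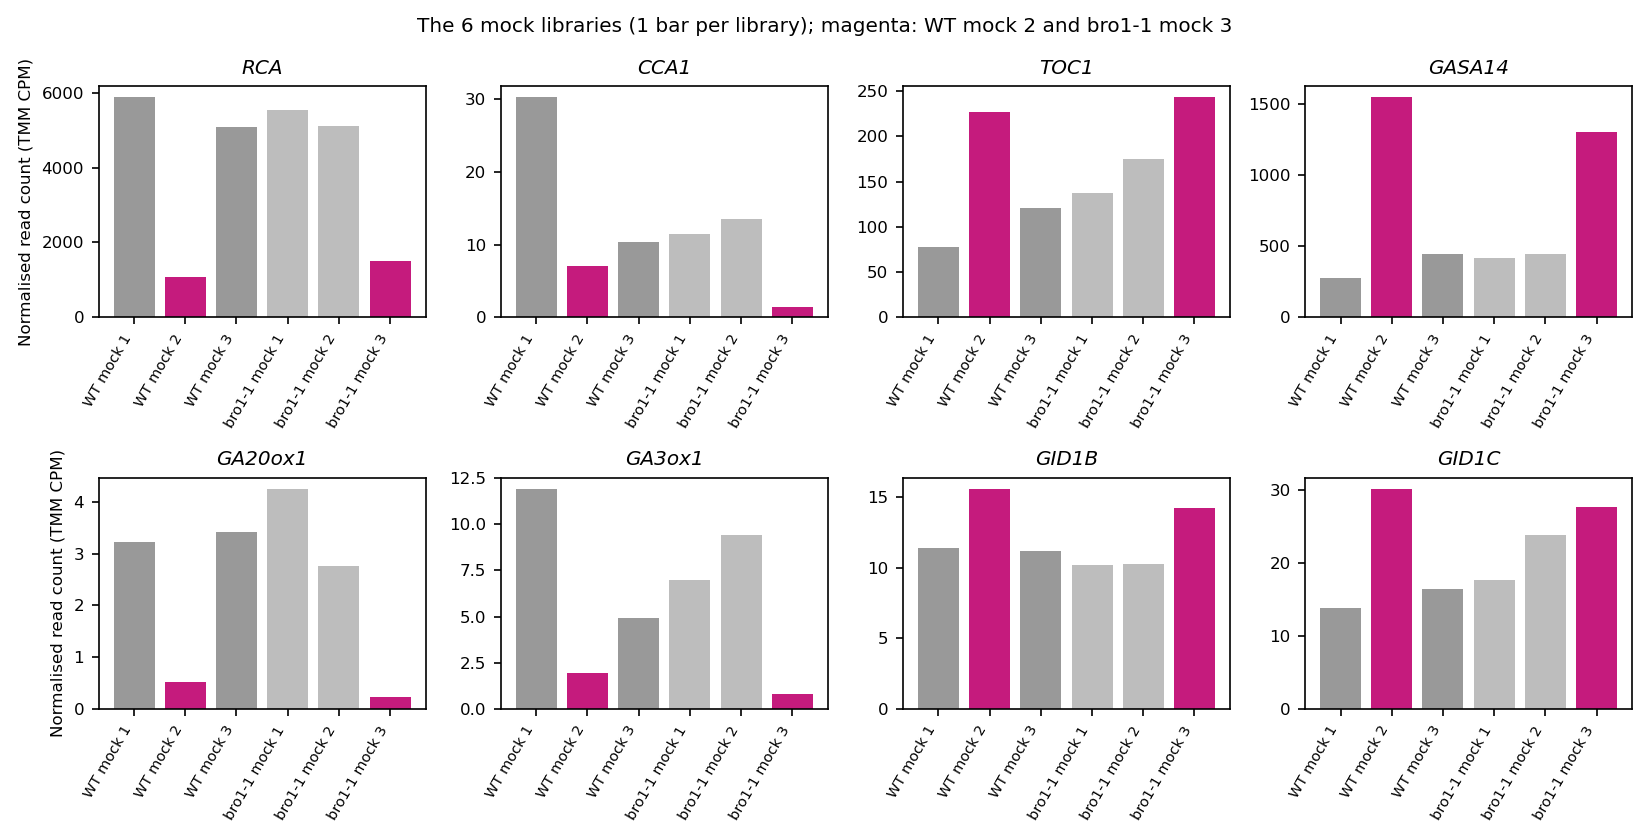
Normalised read counts (TMM CPM, vertical axis from 0) in the 6 mock libraries, 1 bar per library, for RCA, CCA1, TOC1, GASA14 and 4 members; magenta bars are WT mock 2 and bro1-1 mock 3. The magenta libraries are lowest in RCA, CCA1, GA20ox1 and GA3ox1 and highest in TOC1, GASA14, GID1B and GID1C.

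Among the 4 inactivating genes, GA2ox6 was the one called. It had 126, 157 and 60 counts in WT mock, 1279, 1111 and 747 at 2 h, and 713, 622 and 1318 at 4 h. For bro1-1, counts were 145, 68 and 166 at mock, 1424, 1081 and 923 at 2 h, and 543, 834 and 1187 at 4 h. Every ABA library lay above every mock library, and WT and bro1-1 overlapped at each time. The normalised read count went from 5.998 ± 2.44 CPM to 65.2 ± 14.0 and 53.6 ± 26.3 in WT, and from 7.20 ± 2.82 to 71.9 ± 16.9 and 50.8 ± 18.5 in bro1-1 (SD, n = 3). GA2ox6 was upregulated by a log2 fold change of 3.42 (SE 0.34, adjusted p = 0.000733 by edgeR) in WT at 2 h. The WT value at 4 h was 3.15 (SE 0.44, adjusted p = 0.00190 by edgeR). In bro1-1 the corresponding values were 3.28 (0.33, adjusted p = 0.000307 by edgeR) and 2.76 (0.38, adjusted p = 0.000908). The call was made under all 12 alternative settings in each of the 4 comparisons, with log2 fold changes from 2.45 to 3.70. Omitting the fold threshold, 1 of these settings, cannot lose a call.

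GA2ox1, like GA2ox6 an enzyme of bioactive gibberellins, had few counts: 3, 1 and 11 in WT mock, 22, 14 and 17 at 2 h, and 16, 8 and 7 at 4 h. In bro1-1 it had 2, 6 and 6 counts at mock, 6, 19 and 12 at 2 h, and 7, 10 and 15 at 4 h. At 2 h in WT all ABA libraries lay above mock. The log2 fold change of 1.99 (SE 0.72) was not called, at an adjusted p of 0.0805 by edgeR. DESeq2 called it at 2.02 (adjusted p = 0.0486), and 1 edgeR fit of all 18 libraries at 1.99 (adjusted p = 0.0321). In the other comparisons with mock the gene did not pass the filter. In bro1-1 all ABA libraries also lay above mock in CPM at 2 h and 4 h, although 6 counts occurred in both groups at 2 h. Without WT mock 3, the mock library with 11 counts, the WT value at 2 h was 3.32 and was called (adjusted p = 0.0255 by edgeR). GA2ox1 then passed the filter only through the ABA libraries, where it is high, so that call is no separate support.

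GA2ox2 and GA2ox8 were low and showed no call. GA2ox2, which also acts on bioactive gibberellins, had 43 to 100 counts over all 18 libraries, with log2 fold changes of 0.06 (SE 0.28) and 0.50 (0.29) in WT and 0.30 (0.29) and 0.33 (0.29) in bro1-1. GA2ox8, which acts on earlier precursors, had 3 to 38 counts, with 0.17 (SE 0.39) and -0.28 (0.72) in WT and 0.90 (0.45) and 0.77 (0.53) in bro1-1, and its lowest library was WT ABA 4 h 2. These standard errors leave a change of 1 on the log2 scale for GA2ox8 undecided at this depth.

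The make-up of the 2-oxidase class differed between mock and ABA. Of the summed TPM of these 4 genes, 43.7% to 68.9% came from GA2ox6 in WT mock, 53.2% to 69.9% in bro1-1 mock, and 84.1% to 94.6% in the 12 ABA libraries. The summed level of the class was 7.55 to 16.4 TPM in the 6 mock libraries and 38.0 to 93.3 TPM after ABA. GA2ox2 had a mean share of 23.7% at mock in each genotype and of 3.63% and 6.49% in WT and 4.35% and 6.66% in bro1-1 after 2 h and 4 h of ABA, without a call of its own.

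Of the 3 receptors, GID1B alone passed both thresholds without leaving out a library. This receptor, which in biochemical work binds DELLA proteins also with little hormone, had 223, 300 and 200 counts in WT mock, 718, 624 and 362 at 2 h, and 727, 662 and 575 at 4 h. In bro1-1 it had 179, 175 and 253 counts at mock, 831, 533 and 518 at 2 h, and 590, 625 and 612 at 4 h. No ABA library overlapped a mock library of its genotype, and the 4 h libraries were more alike than the 2 h libraries. GID1B was upregulated in WT at 2 h by a log2 fold change of 1.45 (SE 0.26, adjusted p = 0.00656 by edgeR), and at 4 h by 1.60 (SE 0.19, adjusted p = 0.00106 by edgeR). For bro1-1, the values at 2 h and 4 h were 1.73 (0.23, adjusted p = 0.00120 by edgeR) and 1.60 (0.18, adjusted p = 0.000391). As for GA2ox6, all 12 alternative settings called GID1B in each comparison, with values from 1.29 to 1.93. The mock libraries with the most GID1B counts, 300 and 253, were WT mock 2 and bro1-1 mock 3.

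GID1A, the most abundant receptor transcript at mock, had 685, 723 and 711 counts in WT mock, 469, 466 and 612 at 2 h, and 572, 608 and 478 at 4 h. In bro1-1 it had 640, 743 and 595 counts at mock, 409, 369 and 342 at 2 h, and 636, 392 and 462 at 4 h. In WT at 4 h and in bro1-1 at 2 h all libraries lay below mock in CPM, and in the latter the log2 fold change of -0.72 (SE 0.15) had an adjusted p of 0.00779 by edgeR but did not reach the fold threshold. The other values were -0.22 (SE 0.18) and -0.20 (0.14) in WT and -0.41 (0.19) in bro1-1 at 4 h, with adjusted p from 0.116 to 0.394 by edgeR.

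GID1C had 270, 581 and 295 counts in WT mock, 466, 562 and 490 at 2 h, and 486, 560 and 468 at 4 h. The bro1-1 libraries held 312, 406 and 491 counts at mock, 327, 295 and 427 at 2 h, and 523, 435 and 476 at 4 h. The highest mock libraries, with 581 and 491 counts, were WT mock 2 and bro1-1 mock 3. The log2 fold change was 0.64 (SE 0.29) and 0.56 (0.29) in WT and -0.11 (0.20) and 0.25 (0.19) in bro1-1, with adjusted p from 0.146 to 0.686 by edgeR. Without WT mock 2 the WT value at 2 h was 1.05 and was called (adjusted p = 0.00776 by edgeR), and at 4 h it was 0.97 (adjusted p = 0.00551 by edgeR), just under the fold threshold. GID1A and GID1C share at most 35 identical bases in a row in their annotated transcripts.

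The sum of the 3 receptors was 48.6 to 73.4 TPM in WT mock and 48.3 to 63.4 TPM in bro1-1 mock, and these ranges overlapped those of every ABA group of the same genotype. TPM is scaled within each library only, and this sum was not compared in CPM. Within that sum the shares differed. At mock GID1A held 54.1% ± 7.92 in WT and 52.2% ± 6.88 in bro1-1, whereas it held 28.4% to 33.1% on average in the ABA groups (SD, n = 3 in each group). GID1B held 16.9% ± 1.21 and 14.9% ± 2.65 at mock and 33.3% to 43.7% on average after ABA, and GID1C lay between 27.9% and 33.6% on average in all 6 groups. In each genotype, no ABA library had a GID1B share as low as a mock library, or a GID1A share as high as one.

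**Figure D4:**
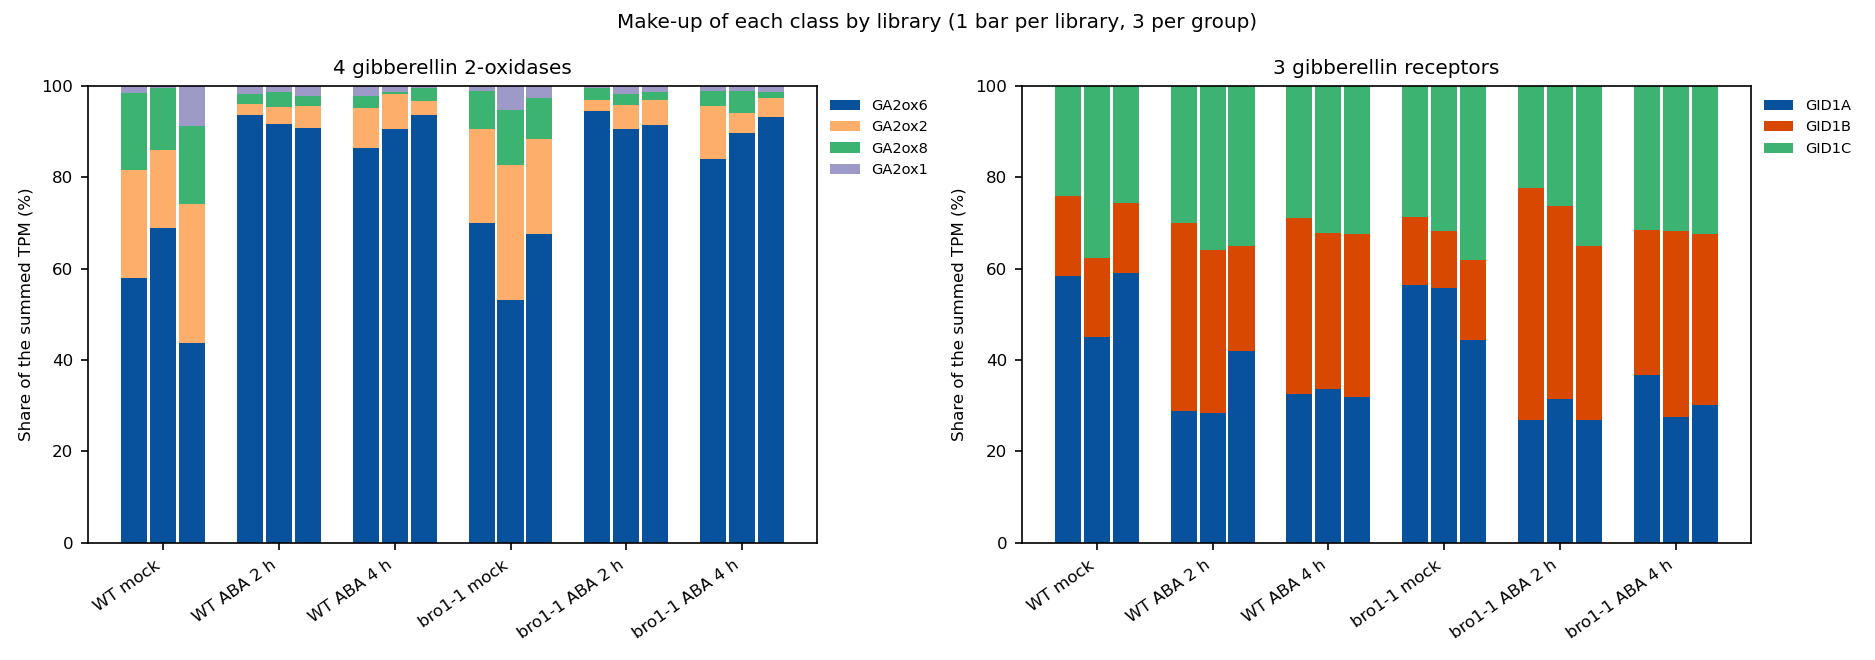
Share of each gene in the summed TPM of its class (vertical axis, percent), 1 bar per library and 3 bars per group; left, the 4 gibberellin 2-oxidases, and right, the 3 receptors. GA2ox6 fills 84.1% to 94.6% of the bar in the ABA libraries, and the part of GID1B is wider in the ABA libraries than in the mock libraries, where GID1A is widest.

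No member was called between 4 h and 2 h of ABA. In WT 0 of 9 members tested passed, and 0 had an unadjusted p under 0.05 by edgeR, against 3.67% of all genes called, and in bro1-1 the counts were the same against 1.06%. DESeq2 called 0 members in either. GA2ox6 had log2 fold changes of -0.30 (SE 0.32) in WT and -0.54 (0.29) in bro1-1, and GID1B of 0.12 (0.22) and -0.16 (0.20). For GA20ox1, which did not pass the filter here, WT had 20 counts in all at 2 h and 5 at 4 h, a ratio of 4.23 with a 95% counting interval from 1.54 to 14.4.

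The genotypes were compared at each time, across times and in their response to ABA. At mock 0 of 9 members tested were called, with 0 at an unadjusted p under 0.05, against 0.0153% of all genes called. After 2 h of ABA 0 of 9 were called, against 0.0308%, and 2 members had an unadjusted p under 0.05. After 4 h 0 of 9 were called, against 0.0202%, with 0 under 0.05 unadjusted. Across all times, with the time as a factor in a fit of 18 libraries, 0 of 10 were called, against 0.0485%, with 0 under 0.05 unadjusted. In the interaction of genotype and ABA, 0 of 10 were called at 2 h and 0 of 10 at 4 h, against 0.0% of all genes at each time, and 0 had an unadjusted p under 0.05 by edgeR. DESeq2 also called 0 members in each of these comparisons. The interaction terms of the members ran from -0.73 to 0.76 on the log2 scale at 2 h and from -0.33 to 1.30 at 4 h, and those of GA2ox6 were -0.12 (SE 0.49) and -0.33 (0.61). The term of 1.30 belonged to GA20ox1 and had a standard error of 1.49. Leaving out WT mock 2 and bro1-1 mock 3 together, an alternative chosen after seeing the data, also gave 0 member calls at mock, across times and in both interactions.

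The 2 members with an unadjusted p under 0.05 between genotypes were receptors after 2 h of ABA. GID1C had 466, 562 and 490 counts in WT and 327, 295 and 427 in bro1-1, with a log2 fold change of bro1-1 against WT of -0.54 (SE 0.16, adjusted p = 0.624 by edgeR). GID1A had 469, 466 and 612 counts in WT and 409, 369 and 342 in bro1-1, with -0.48 (SE 0.18, adjusted p = 0.667 by edgeR). These 2 of 9 members tested had every bro1-1 library below every WT library in CPM, which 6.75% of all genes tested showed in this direction. At 4 h the values were -0.09 (SE 0.12) for GID1C and -0.17 (0.18) for GID1A, with overlapping libraries, and at mock 0.19 (0.32) and 0.01 (0.15). For GID1B the value at 2 h was 0.16 (SE 0.25). At mock, GA2ox8 had 32, 27 and 20 counts in WT and 15, 9 and 19 in bro1-1, with -0.76 (SE 0.41), and it was the 1 of 9 members tested with every bro1-1 library below every WT library, against 3.23% of all genes tested. At 4 h, GA20ox1 had 3, 1 and 1 counts in WT and 6, 3 and 4 in bro1-1, every bro1-1 library being above WT in CPM; it did not pass the filter there, and 7.23% of all genes tested showed that order.

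The other genes of the pathway were taken from a fixed list of 39 genes, in which 26 passed the filter in WT at 2 h, 25 in WT at 4 h, and 26 in bro1-1 at each time. Calls in WT numbered 7 higher and 7 lower at 2 h and 6 higher and 7 lower at 4 h, and in bro1-1 6 higher and 8 lower at 2 h and 8 higher and 6 lower at 4 h. Over all genes, 10.9% were called higher and 6.8% lower in WT at 2 h, 13.5% and 7.41% at 4 h, and in bro1-1 13.4% and 8.45% at 2 h and 15.5% and 8.24% at 4 h. Without WT mock 2 the calls were 8 higher and 6 lower at 2 h and 8 and 7 at 4 h, and without bro1-1 mock 3 they were 7 and 8 at 2 h and 11 and 6 at 4 h. Some called genes had under 10 counts in every library of 1 group and passed the filter only through the group where they were high, so that they had to differ. These were CPS at 2 h, GA2ox7 at 2 h, GASA10 and SWEET13 in all 4 comparisons, GASA3 in WT and SWEET14 in bro1-1 at 4 h, that is 4 of the 7 higher calls in WT at 2 h and 3 of the higher calls in each other comparison.

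Among the early enzymes, CPS, which makes ent-copalyl diphosphate at the entry of the pathway, had 11, 15 and 23 counts in WT mock and 4, 1 and 2 at 2 h, and 17, 16 and 13 in bro1-1 mock and 1, 1 and 4 at 2 h. It passed the filter only through its mock libraries, and was called lower at 2 h, with log2 fold changes of -2.54 (SE 0.62, adjusted p = 0.0228 by edgeR) in WT and -2.78 (0.61, adjusted p = 0.00962) in bro1-1, and was not called at 4 h. KS, the next enzyme, lay above mock by 0.67 to 0.92 on the log2 scale, with adjusted p from 0.00527 to 0.0177 by edgeR but below the fold threshold, which it passed in bro1-1 at 4 h without bro1-1 mock 3 (1.02). KO, KAO1 and KAO2, the oxidases that follow, had values from -0.99 to -0.08 and did not pass both thresholds in any of the 4 comparisons.

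Of 9 further oxidase genes on the list, only GA2ox7, a 2-oxidase for earlier precursors, passed the filter in any comparison of ABA with mock. It had 1, 0 and 0 counts in WT mock, 59, 114 and 16 at 2 h, and 53, 9 and 90 at 4 h. In bro1-1 it had 0 counts in each mock library, 31, 131 and 113 at 2 h, and 20, 79 and 7 at 4 h. In WT the ratio of summed counts was 224 at 2 h, with a 95% counting interval from 39.7 to 8888, and 170 at 4 h, with an interval from 30.1 to 6771. In bro1-1 GA2ox7 was at least 33.4-fold higher at 2 h and at least 12.2-fold higher at 4 h, against a floor of 3 counts per library. At 2 h it passed the filter only through the ABA libraries, where it is high, so its call there is no separate support, and at 4 h it did not pass the filter with all mock libraries. GA20ox4, GA3ox4, GAMT1 and GASA11 had 0 counts in every library.

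The DELLA repressors were called in both directions. GAI had 837, 1095 and 1394 counts in WT mock, 310, 281 and 491 at 2 h, and 291, 441 and 307 at 4 h, and in bro1-1 1036, 1096 and 1213 counts at mock, 389, 336 and 376 at 2 h, and 389, 338 and 396 at 4 h. It was downregulated in all 4 comparisons, with log2 fold changes of -1.39 (SE 0.31) and -1.54 (0.25) in WT and -1.51 (0.12) and -1.57 (0.13) in bro1-1, and adjusted p from 9.1e-05 to 0.0166 by edgeR. RGL3, a DELLA gene with a known role in stress and jasmonate responses, was upregulated in all 4, by 1.84 (SE 0.42) and 1.71 (0.33) in WT and 1.29 (0.25) and 1.83 (0.25) in bro1-1, with adjusted p from 0.000905 to 0.0182 by edgeR. RGL1 was called in bro1-1 at 4 h alone, at 1.04 (SE 0.21), beside 0.61 (0.19) in WT at 4 h. RGA and RGL2 were not called, with values from -0.42 to 0.25 and from -0.99 to 0.39.

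Of the 4 genes for DELLA turnover and modification, SEC, an O-linked N-acetylglucosamine transferase that modifies DELLA proteins, was upregulated in all 4 comparisons, by 1.14 (SE 0.18) and 1.46 (0.22) in WT and 1.39 (0.17) and 1.48 (0.16) in bro1-1 on the log2 scale. Its adjusted p ran from 0.000336 to 0.00429 by edgeR. SPY, the O-fucosyltransferase, had -0.81 and -0.69 in WT and -0.76 and -0.68 in bro1-1, the F-box gene SLY1 had 0.33 to 0.60, and neither they nor SNE or the DELLA partner SCL3 passed both thresholds. SCL3 was called in WT without WT mock 2, at 1.02 (adjusted p = 0.00678 by edgeR) and 1.41 (adjusted p = 0.00348 by edgeR).

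The GASA family, named for genes that respond to gibberellin, had 8 of 10 members tested in each comparison of ABA with mock. GASA1, GASA4, GASA6, GASA9 and GASA14 were downregulated in all 4. GASA6, known in elongation growth, had 4500, 1411 and 2219 counts in WT mock, 121, 78 and 276 at 2 h and 137, 151 and 75 at 4 h, and log2 fold changes of -3.84 (SE 0.62) and -4.33 (0.47) in WT and -3.98 (0.36) and -5.58 (0.28) in bro1-1. GASA1 had -1.46 (SE 0.42) and -3.01 (0.44) in WT and -2.05 (0.31) and -3.77 (0.38) in bro1-1, and was also lower at 4 h than at 2 h in WT, by -1.57 (adjusted p = 0.0139 by edgeR), and in bro1-1, by -1.75 (adjusted p = 0.0211 by edgeR). Without WT mock 2, GASA1 at -0.89 and GASA14 at -0.93 (in place of -1.99) were no longer called in WT at 2 h, while GASA14 was still called in WT at 4 h, at -1.85 in place of -2.92. GASA5 was called in WT at 4 h and in bro1-1 at 2 h, and without WT mock 2 also in WT at 2 h (-2.44, adjusted p = 0.00646 by edgeR). GASA10 was upregulated in all 4, with at most 8 counts in a mock library and 17 to 136 in the ABA libraries, and GASA3 in 3 of the 4. GASA3 had 0 counts in each WT mock library and in 2 of the bro1-1 mock libraries, but 24 in bro1-1 mock 3, the library with seed storage transcripts, and was not called in bro1-1 at 2 h, at 2.39 (adjusted p = 0.166 by edgeR). Without that library GASA3 had 0 counts at mock and was called at both times in bro1-1 (adjusted p = 0.0111 and 7.29e-05 by edgeR). It then passed the filter only through the ABA libraries, so these calls are no separate support.

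Among the transport genes, NPF3.1, a gibberellin transporter, was upregulated in all 4 comparisons, by 1.48 (SE 0.18) and 1.73 (0.17) in WT and 2.09 (0.30) and 2.39 (0.20) in bro1-1. SWEET13, a sugar carrier that also moves gibberellin, had 0 to 4 counts in each mock library and 46 to 157 in the ABA libraries. The ratio of its summed counts in WT was 34.3 at 2 h, with a 95% counting interval from 16.4 to 86.5, and 37.8 at 4 h, with an interval from 18.05 to 95.0. SWEET14, its close relative, had 0 counts in each bro1-1 mock library and 19, 17 and 18 in bro1-1 at 4 h, where it was at least 6.22-fold higher against a floor of 3 counts per library; it passed the filter only through that group, so its call is no separate support. In WT it had 1, 0 and 0 counts at mock and 3, 14 and 0 at 4 h and did not pass the filter.

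**Figure D5:**
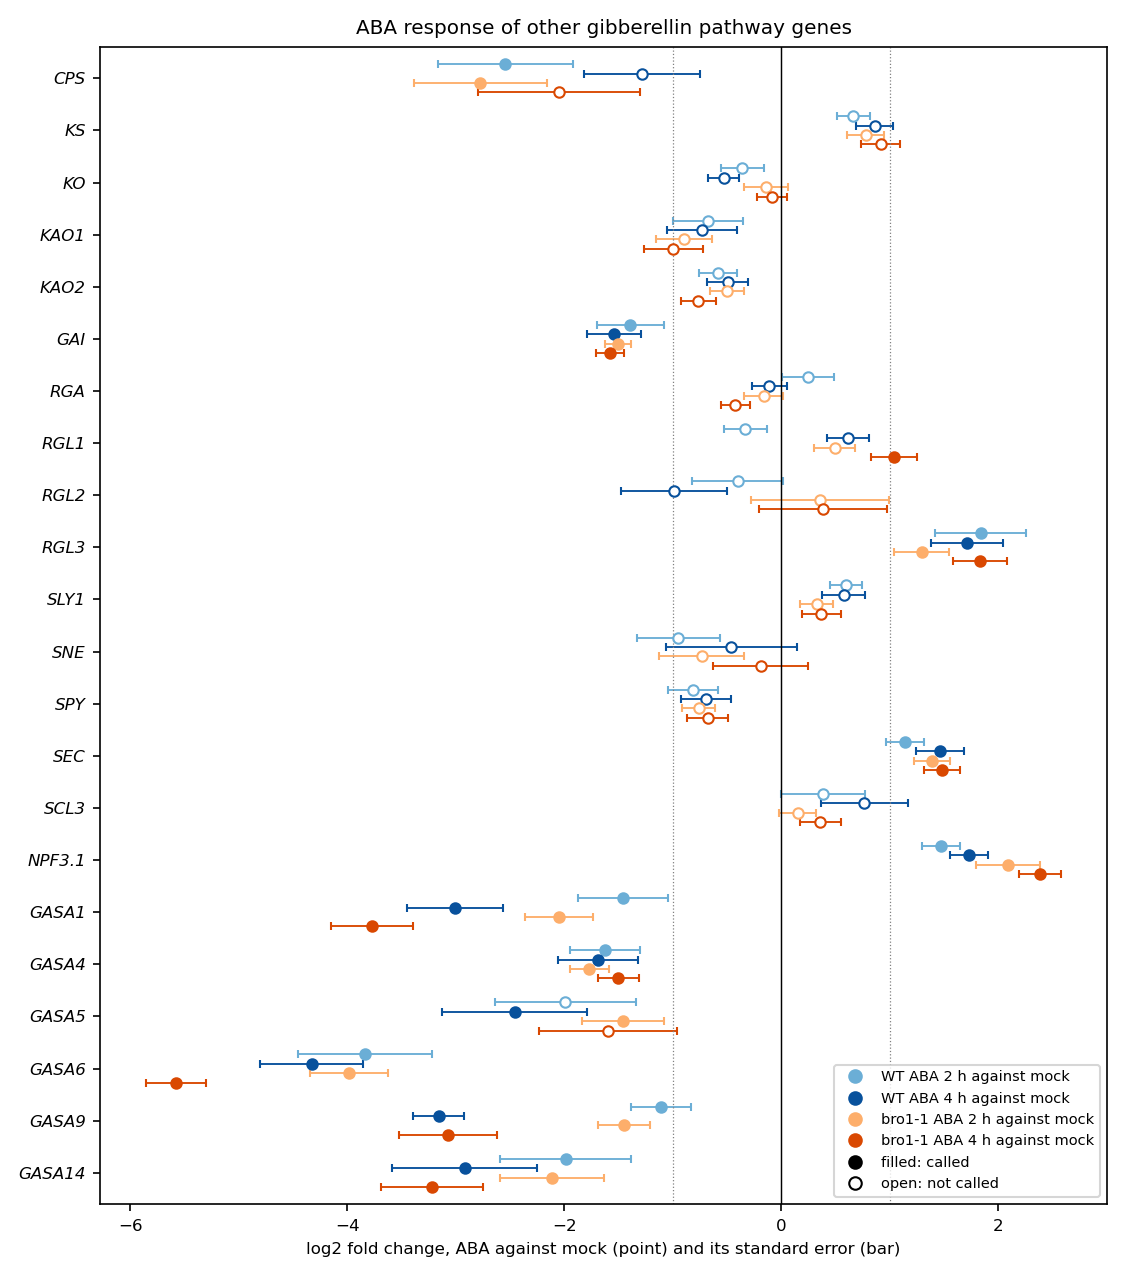
Log2 fold change of ABA against mock (horizontal axis) with its standard error (bars) for other pathway genes in 4 comparisons; filled points were called and open points were not, and dotted lines mark -1 and 1. GAI, GASA1, GASA4, GASA6, GASA9 and GASA14 are filled on the left in all 4 comparisons, and RGL3, SEC and NPF3.1 on the right.

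A list of 9 clock genes was added after seeing the data. In WT, 3 were called at 2 h (CCA1, PRR9 and ELF4) and 1 at 4 h (ELF4), and in bro1-1 3 at 2 h (CCA1, LHY and PRR9) and 3 at 4 h (CCA1, PRR9 and ELF4), all higher, beside 17.7%, 20.9%, 21.9% and 23.8% of all genes called. TOC1 was also called in WT at 4 h without WT mock 2, and without bro1-1 mock 3 the counts were again 3 and 3. CCA1 had 137 to 592 counts in WT mock, 1188 to 2410 at 2 h and 511 to 856 at 4 h, and the log2 fold change at 2 h was 2.80 (SE 0.55, adjusted p = 0.0103 by edgeR), or 2.45 (adjusted p = 0.0118) without WT mock 2. ELF4, an evening gene, had 284 to 375 counts in WT mock and 3604 to 4549 at 4 h, with 3.74 (SE 0.21, adjusted p = 9.62e-05 by edgeR). The hour at which each group was harvested is not given in the sources used here, so that time of day and ABA cannot be told apart for genes that follow the clock. GA2ox6 and GID1B were called at both times in both genotypes, as was ELF4 in WT and as were CCA1 and PRR9 in bro1-1. In WT, CCA1 also differed between 4 h and 2 h, by -1.59 (SE 0.30, adjusted p = 0.0219 by edgeR). The part of the clock in the member results was not tested.

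For each member of at least 1 CPM on average, the genes with the most similar profile were found by Pearson's r of log2(CPM + 0.5) over the 18 libraries, which share the large contrast of ABA with mock. GA2ox6 was most like AT1G61890 (r = 0.992) and ABCG1 (AT2G39350, r = 0.986), and GID1B most like AT2G21180 (r = 0.979) and NHX2 (AT3G05030, r = 0.973). GA20ox2 was most like AT5G51790 (r = 0.941), and GA3ox1 most like SS4 (AT4G18240, r = 0.936), a starch synthase gene. GID1A was most like BBX14 (AT1G68520, r = 0.933) and GID1C most like TEM1 (AT1G25560, r = 0.900). GA2ox2 and GA2ox8 had no gene above r = 0.801 and 0.770. GA20ox1 and GA2ox1 were below 1 CPM and were left out.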

How the data were processed

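RNA was sequenced from 18 libraries of seedlings, 3 for each of 6 groups. The authors clipped and filtered reads with BBDUK2, discarded ribosomal reads with Bowtie 2 (2.3.5.1) and estimated expression with RSEM (1.2.30). The deposited values are RSEM expected counts per gene, without normalization between libraries, and TPM, which the authors' RSEM run scaled within each library. The genome build, annotation release and strand setting are not given in the sources used here, and positions and sequences come from RefSeq TAIR10.1; the upstream sequence of 1 member is not reported here.

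Expected counts were rounded and fitted with edgeR 4.0.16 (R 4.3.3): filterByExpr at its default minimum count of 10, TMM factors and the quasi-likelihood test, on the libraries of each of 12 comparisons, with Benjamini-Hochberg adjustment over all genes tested. Displayed CPM use TMM factors over all 18 libraries. The standard error is the absolute log2 fold change divided by the square root of F. Named genes are the 10 members, called genes of a list of 39 pathway genes together with its DELLA and early enzyme genes, SCL3, GA20ox3 and GA3ox2, and the most similar genes by r. SLY1, SNE, SPY, GA20ox5 and the genes with 0 counts in every library fall outside that rule and were named after their values were seen, and clock genes were added after seeing the data. Members and lists were chosen with earlier results of these data known. Alternatives were DESeq2 1.42.0, scaling by RLE factors, omitting the filter or the fold threshold, 1 fit of all 18 libraries, the replicate number as a block, leaving out each library, and TPM in place of CPM. The fits were tested on simulated data. Library totals were 15568032 to 17853167, so genes under 10 counts have wide errors. Intervals on counts cover counting error only.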

Additional observations from a re-analysis of the deposited data

How the results depend on the processing

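The calls of GA2ox6 and GID1B after ABA held under all 12 alternatives in all 4 comparisons, as did that of GA20ox1 in WT at 4 h and those of GA20ox2 in bro1-1. Omitting the fold threshold, 1 of these alternatives, cannot lose a call. GA20ox1 passed the filter in WT only through its mock libraries, so its call under the filtered settings is no separate support. Of the fold changes of members under the alternatives, 1585 were on the same side of the thresholds, 14 gained a call and 0 reversed a call. In WT at 2 h, where 2 members were called, DESeq2 called 4 and 1 fit of all 18 libraries called 4, adding GA20ox1 and GA2ox1, and leaving out 1 library gave 2 to 4. In WT at 4 h, where 3 were called, DESeq2 and 1 fit of all 18 libraries each called 4, adding GA20ox2, and leaving out 1 library gave 3 to 5, the 5 without WT mock 1 (GA20ox2 and GA3ox1 added). Over all genes, the alternatives gave 2424 to 5143 calls in WT at 2 h and 3105 to 6209 at 4 h. With TPM in place of CPM the log2 ratio of group means in WT went from 0.07 to -0.21 for GA2ox2 at 2 h, and for GID1A from -0.20 to -0.50 at 2 h and from -0.19 to -0.40 at 4 h. TPM carries no TMM factor, and these factors were 1.09 to 1.15 in WT mock, 0.896 to 0.946 at 2 h and 0.914 to 1.07 at 4 h. Their part in the shift was not tested. Deviations of same-numbered libraries had a median correlation of -0.02, and 10 of 45 pairs exceeded 0.1. For different-numbered libraries the median was 0.02, and 35 of 90 pairs exceeded 0.1. The replicate numbers thus gave no sign of pairing, but such correlations cannot show whether libraries were handled together. With the replicate number as a block, 4 members in place of 3 were called in bro1-1 at 4 h, adding GA3ox1 at 1.30 (adjusted p = 0.0346 by edgeR), and over all genes 2 in place of 211 were called between 4 h and 2 h in bro1-1, 0 in place of 3 between genotypes at mock and 1 in place of 6 at 2 h. Over all genes, DESeq2 called 683 in place of 211 between 4 h and 2 h in bro1-1, and between genotypes 7 in place of 3 at mock, 73 in place of 6 at 2 h, 255 in place of 4 at 4 h and 20 in place of 10 across times, with 16 and 10 in place of 0 for the interactions at 2 h and 4 h. With no fold threshold, 7898 in place of 4325 genes were called in bro1-1 at 2 h, 8100 in place of 4746 at 4 h, and 1512 in place of 716 between 4 h and 2 h in WT. Between genotypes at 4 h, no filter gave 18 and all 18 libraries in 1 fit gave 9 in place of 4. Leaving out 1 library gave 246 to 861 calls between 4 h and 2 h in WT, 0 to 355 in bro1-1, and between genotypes 0 to 2 at mock, 1 to 8 at 2 h and 2 to 34 at 4 h, with 0 to 2 for the interaction at 4 h. Depth limits GA20ox1, GA2ox1 and GA2ox8, which had under 10 counts in some libraries.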

Other observations

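Several oxidase genes that did not pass the filter in the comparisons with mock had counts that differed between groups. GA3ox2, the other vegetative 3-oxidase, had 3, 0 and 0 counts in bro1-1 mock, 48, 5 and 16 at 2 h, and 10, 34 and 90 at 4 h, a ratio of summed counts to mock of 25.2 (95% counting interval 8.26 to 125) at 2 h and 46.3 (15.5 to 227) at 4 h. In WT it had 7, 0 and 4 counts at mock, 1, 11 and 13 at 2 h, and 3, 21 and 2 at 4 h, so that the groups overlapped, and the difference between the genotypes was not tested for this gene. GA20ox5 had 0, 1 and 0 counts in WT mock and 0 in each bro1-1 mock library, and 4, 6 and 4 in WT and 35, 4 and 7 in bro1-1 at 2 h. GA20ox3 had 4, 3 and 8 counts in bro1-1 mock, 1, 0 and 2 in WT mock, and at most 1 count in each ABA library.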
